A study of Homo sapiens with 9 samples.

Results

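The Notch genes described here were 10 genes chosen by name for their place in the pathway: the ligands JAG1, JAG2 and DLL1, the receptors NOTCH1, NOTCH2 and NOTCH3, the glycosyltransferase LFNG, and the target genes HES1, HEY1 and NRARP. They are 10 of the 58395 gene identifiers in the count files, and they were chosen with earlier results of these data known. JAG2 was included because the study had already named it from these same libraries, so its values are a description and its tests give no independent support. Of the 10, 9 had enough reads to be tested, and DLL1 did not. The study profiled RNA from MDA-MB-231, a line of triple-negative breast cancer cells, to ask how transcription responded when the zinc transporter ZIP7 (gene SLC39A7) was knocked down.

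All 9 libraries came from this 1 line, harvested 96 h after reverse transfection. The first group, siNC, received a nontargeting control siRNA. The siZIP7_1 and siZIP7_2 groups each received 1 siRNA against ZIP7, 2 different siRNAs obtained from 2 different suppliers, and each group held 3 libraries. Every group had therefore been transfected, and none was left untreated. Both knockdown groups were compared with the same siNC libraries, so these comparisons are not independent of each other. The study describes the transfections as made in triplicate in this 1 line, so the p-values measure the spread between such transfections.

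Notch signalling passes between touching cells. A ligand of the Jagged or Delta-like family on one cell binds a Notch receptor on its neighbour, and the pull of ligand endocytosis exposes the receptor to ADAM proteases and then to gamma-secretase. The freed intracellular domain enters the nucleus, joins the DNA-binding protein RBPJ and a Mastermind co-activator, and turns on HES and HEY repressors and NRARP, which in turn dampens the signal. Fringe enzymes such as LFNG add sugar to the receptor and change which ligands it answers to. In breast cancer the pathway is best known for its roles in stem-like cells and invasion.

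Sequences ahead of the starts of LFNG, HES1 and NRARP are shown. These are 3 of the 6 genes that moved in opposite directions with the 2 siRNAs, as described below. The sequences were taken from RefSeq (GRCh38.p14), where 8 of the 10 genes were matched by symbol, in 9 windows. Each runs 5′ to 3′ along the strand of the gene, from 250 bases before the start to the start base itself. Capitals mark the letters TGGGAA, the core bound by RBPJ, or TTCCCA where it lies on the other strand. The windows of NOTCH1, NOTCH2 and NOTCH3, which also moved in opposite directions, held no such match and are not printed.
HES1, chr3:194135898-194136148, plus strand: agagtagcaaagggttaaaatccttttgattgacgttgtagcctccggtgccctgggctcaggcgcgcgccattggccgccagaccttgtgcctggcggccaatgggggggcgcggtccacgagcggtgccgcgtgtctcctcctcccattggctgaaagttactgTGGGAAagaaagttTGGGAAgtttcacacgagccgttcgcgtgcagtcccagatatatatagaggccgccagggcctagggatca
LFNG, chr7:2512279-2512529, plus strand: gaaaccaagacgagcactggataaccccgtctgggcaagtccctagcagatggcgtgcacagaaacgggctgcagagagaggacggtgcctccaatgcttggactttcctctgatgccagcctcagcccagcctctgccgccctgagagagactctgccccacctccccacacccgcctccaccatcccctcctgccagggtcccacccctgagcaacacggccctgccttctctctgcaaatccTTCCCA
LFNG, second start, chr7:2517613-2517863, plus strand: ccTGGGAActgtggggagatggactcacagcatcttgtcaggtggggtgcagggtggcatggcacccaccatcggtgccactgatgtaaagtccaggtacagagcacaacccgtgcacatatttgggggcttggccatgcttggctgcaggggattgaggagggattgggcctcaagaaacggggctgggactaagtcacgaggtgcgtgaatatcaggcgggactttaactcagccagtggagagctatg
NRARP, chr9:137302271-137302521, minus strand: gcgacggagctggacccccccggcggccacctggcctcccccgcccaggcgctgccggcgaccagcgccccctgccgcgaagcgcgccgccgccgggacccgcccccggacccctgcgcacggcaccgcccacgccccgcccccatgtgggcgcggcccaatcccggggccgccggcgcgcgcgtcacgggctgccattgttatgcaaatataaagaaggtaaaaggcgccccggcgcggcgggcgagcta

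Over windows of 300 bases, 250 before and 50 after the start, the HES1 window held TGGGAA 2 times, beginning 84 and 70 bases before the start on the strand of the gene. The LFNG windows each held it 1 time, the first on the opposite strand, ending at the start base, and the second 248 bases before its start. The windows of JAG1, JAG2, NOTCH1, NOTCH2, NOTCH3 and NRARP held no match on either strand. Among all 35116 RefSeq windows of this length, 24% held TGGGAA and 3.8% held it 2 or more times. The letters CACNAG, an N-box of the kind HES proteins bind, also sought on both strands, occurred 4 times in the HES1 window, 2 times in that of NOTCH1 and 1 time each in those of NOTCH2, NOTCH3, NRARP and the second LFNG start. Of all windows 38% held it and 8.94% held it 2 or more times. On either strand, no window of the 8 matched genes held the unfolded protein response element TGACGTGG (0.729% of all windows) or the ER stress response element, CCAAT and CCACG with 9 bases between them (0.0769%). The latter element shares CCACG with the opposite strand of the former. These matches describe letters only, and binding was not measured.

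The libraries held 24153785 to 30454419 counts assigned to genes, and 16761 genes passed the filter on low counts. SLC39A7, the targeted gene, checked the labels. It stood at 321, 343 and 322 CPM (counts scaled to library size) in siNC, at 35.4, 32.9 and 38.6 CPM in siZIP7_1 and at 20.5, 19.5 and 17.6 CPM in siZIP7_2, so 10.8% and 5.84% of the control level remained. Markers of the mesenchymal-like MDA-MB-231 line were present in every library (VIM at 5529, 2687 and 2896 CPM as means of siNC, siZIP7_1 and siZIP7_2), while ESR1 (0.0887, 0.241 and 0.501 CPM) and PGR (no more than 2 counts in any library) were near 0, and ERBB2 stood at 74.2, 88.0 and 59.3 CPM. These markers also moved with the siRNAs: ZEB1, a driver of the mesenchymal state, stood at 116, 42.6 and 122 CPM, and the epithelial markers CDH1 at 0.466, 4.18 and 0.998 CPM and EPCAM at 6.57, 9.68 and 4.42 CPM. Of the other markers of the line, CD44 stood at 816, 465 and 1793 CPM and AXL at 1911, 1738 and 1005 CPM. With siZIP7_1 CDH1 rose by a log2 value of 3.14 (SE 0.22, adjusted p = 1.6e-13) and ZEB1 fell (log2 fold change −1.45, SE 0.049, adjusted p = 8.5e-21); the part of this in the Notch results was not tested.

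Most genes in these cells were called, which sets the background against which the Notch genes must be read. A gene was called when its adjusted p in edgeR was under 0.05. With siZIP7_1, 70.7% of tested genes were called (34.8% higher and 35.9% lower than siNC), and 9 of the 10 Notch genes were called, 2 higher and 7 lower. With siZIP7_2, 77.8% were called (38.5% higher and 39.3% lower), and again 9 Notch genes, 8 higher and 1 lower. Between the siRNAs directly, 78.7% were called (38.1% higher and 40.6% lower with siZIP7_2), and 8 Notch genes were called, all higher with siZIP7_2. Being called was therefore common, and the sizes and directions of change carry more of the description. The median absolute log2 fold change over the 9 tested Notch genes was 1.33 with siZIP7_1 and 1.28 with siZIP7_2, beside 0.48 and 0.58 over all tested genes. The median signed log2 fold change was −1.28 and 1.28, beside −0.0069 and −0.0018 over all tested genes.

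Over both knockdown groups, JAG2 and HEY1 were higher with each siRNA, JAG1 was lower with each, and NOTCH1, NOTCH2, NOTCH3, LFNG, HES1 and NRARP were lower with siZIP7_1 and higher with siZIP7_2. Among all tested genes 17.7% were higher with each siRNA, 20.8% were lower with each and 18.7% moved in opposite directions. Thus 6 of the 9 tested Notch genes fell in a class that held fewer than 1 in 5 tested genes. The Notch genes were chosen with earlier results of these data known, so this count is a description. Some of these changes were small, with log2 fold changes of −0.28 and 0.32 for NOTCH2 and 0.20 for HES1 with siZIP7_2. The ranges of the 3 libraries did not overlap between siZIP7_1 and siNC, or between siZIP7_2 and siNC, for any of the 9 tested Notch genes. Such separation was also common: it held for 72.1% of tested genes with siZIP7_1 (35.5% higher and 36.5% lower), for 78.7% with siZIP7_2 (38.9% higher and 39.9% lower) and for 79.7% between the siRNAs (38.5% higher and 41.2% lower), where JAG2 overlapped.

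**Figure D1:**
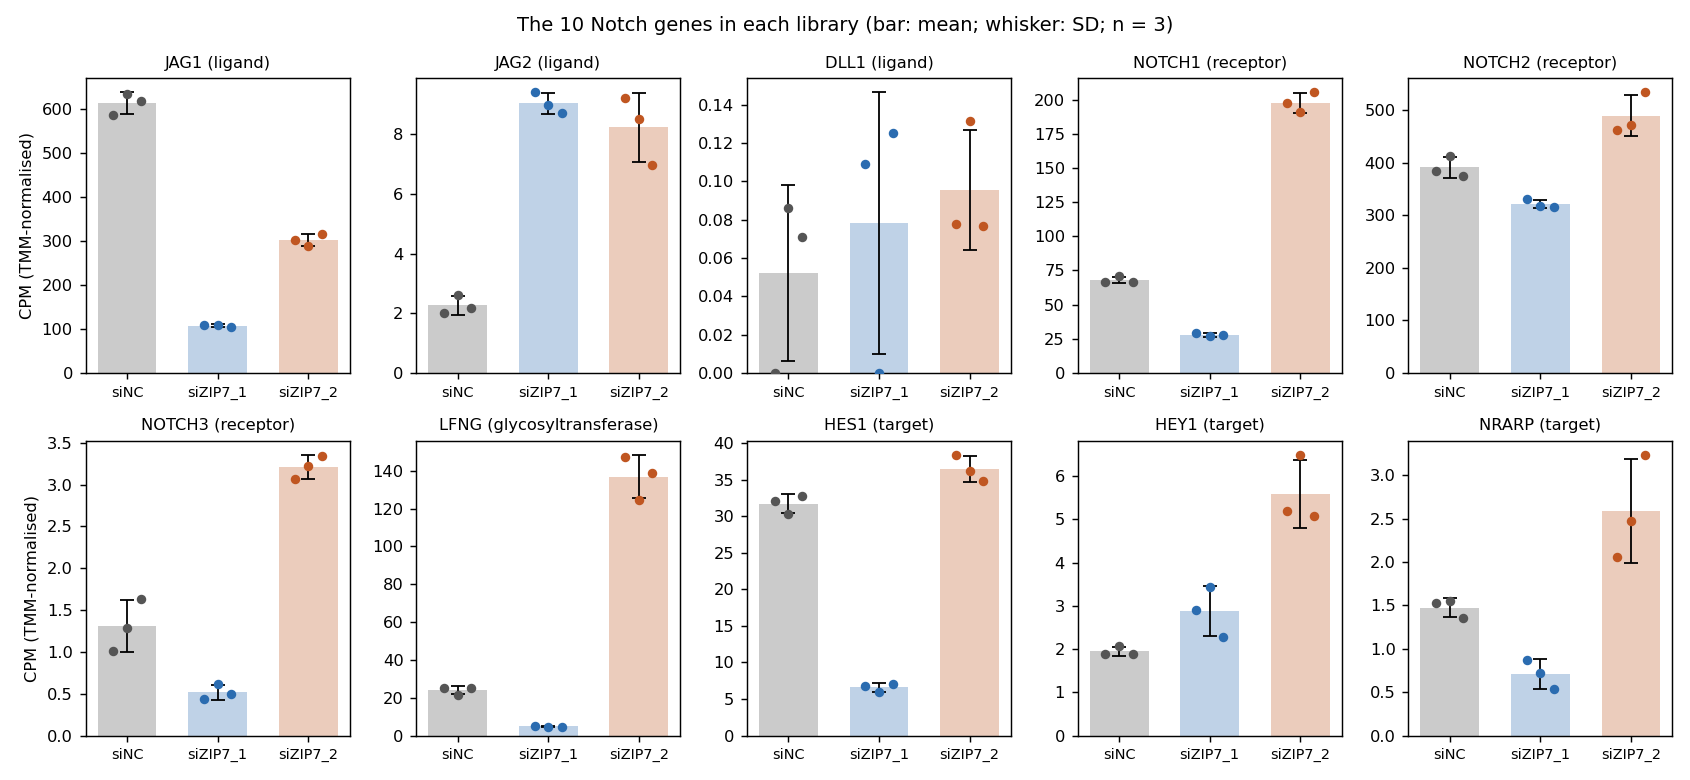
CPM (vertical axes, each from 0 and on its own scale) of the 10 Notch genes in each library of the siNC, siZIP7_1 and siZIP7_2 groups; points are libraries, bars the mean and whiskers the SD of 3 libraries. JAG2 stands above siNC in both knockdown groups and JAG1 below it, while NOTCH1, NOTCH2, NOTCH3, LFNG, HES1 and NRARP stand below siNC with siZIP7_1 and above it with siZIP7_2.

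JAG2 rose to about the same level with both siRNAs, from a low start. JAG2 encodes a Jagged ligand and lies at chr14:105140981-105168824 on the minus strand (GENCODE 29, GRCh38). It stood at 2.00, 2.62 and 2.17 CPM in the siNC libraries, at 9.40, 8.97 and 8.72 CPM with siZIP7_1 and at 9.20, 8.52 and 6.96 CPM with siZIP7_2. All 6 knockdown libraries lay above all 3 controls, and the knockdown groups overlapped. The log2 fold change was 2.00 (SE 0.13, adjusted p = 4.1e-14) with siZIP7_1 and 1.87 (SE 0.13, adjusted p = 2.4e-13) with siZIP7_2. The direct difference between the siRNAs was −0.13 (SE 0.10, 95% interval −0.34 to 0.08, adjusted p = 0.248), so any difference within that interval was not resolved. The siNC values rest on 55 to 61 reads per library, and 7.33% of the exonic length of JAG2 overlaps another annotated gene, AL512356.1.

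JAG1, the most abundant of the 10 genes per length in siNC, fell with both siRNAs and by unequal amounts. This second Jagged ligand lies at chr20:10637684-10673999 on the minus strand. Its levels were 588, 636 and 619 CPM in siNC, 109, 110 and 104 CPM with siZIP7_1, and 303, 288 and 316 CPM with siZIP7_2. The 3 groups were fully apart, with siZIP7_2 between the others. With siZIP7_1 17.5% of the siNC level was left (log2 fold change −2.51, SE 0.051, adjusted p = 7.5e-26), and with siZIP7_2 49.3% was left (−1.02, SE 0.048, adjusted p = 1.7e-17). The siRNAs differed by a log2 value of 1.49 (SE 0.050, adjusted p = 3.2e-21). The Jagged ligands thus moved in opposite directions under the same siRNA, and did so with each of them.

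DLL1, a Delta-like ligand at chr6:170282206-170306565 on the minus strand, had 0, 2 and 2 counts in siNC, 3, 0 and 4 with siZIP7_1, and 2, 4 and 2 with siZIP7_2. It was too low to test, and a difference was not detectable at this depth. DLL4, a further Delta-like ligand outside the 10, had 5 to 9 counts in the siNC libraries, and its mean rose from 0.275 CPM to 2.25 CPM with siZIP7_1 (log2 fold change 2.99, SE 0.27, adjusted p = 4.5e-11) and 2.01 CPM with siZIP7_2 (2.84, SE 0.28, adjusted p = 2.0e-10). DLL4 passed the filter through the knockdown groups, where it is high.

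All 3 receptors among the 10 were lower with siZIP7_1 and higher with siZIP7_2. NOTCH1 (chr9:136494433-136545786, minus strand) stood at 66.3, 70.6 and 66.7 CPM in siNC, at 29.4, 26.8 and 27.5 CPM with siZIP7_1 and at 197, 191 and 205 CPM with siZIP7_2. Every siZIP7_1 library lay below the controls and every siZIP7_2 library above them. The log2 fold changes were −1.28 (SE 0.055, adjusted p = 1.8e-18) and 1.54 (SE 0.050, adjusted p = 2.4e-21), and NOTCH1 was 7.08-fold higher with siZIP7_2 than with siZIP7_1 (log2 2.82, SE 0.053, adjusted p = 4.8e-27).

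NOTCH2 (chr1:119911553-120069626, minus strand) followed the same order with smaller steps. Its levels were 384, 414 and 376 CPM in siNC, 332, 317 and 316 CPM with siZIP7_1, and 463, 471 and 534 CPM with siZIP7_2. The groups did not overlap. The log2 fold changes were −0.28 (SE 0.053, adjusted p = 2.6e-05) and 0.32 (SE 0.053, adjusted p = 2.9e-06), with a difference of 0.61 between the siRNAs (SE 0.053, adjusted p = 1.9e-11). NOTCH2 has near-identical partial copies in the genome, and reads that fit both places could be lost from its count, so its level is uncertain. The copy NOTCH2NLA had 1 to 8 counts in each library and was not tested.

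NOTCH3 (chr19:15159038-15200981, minus strand), a receptor best known from the muscle cells around vessels, was low throughout. It stood at 1.02, 1.29 and 1.64 CPM in siNC, at 0.437, 0.618 and 0.502 CPM with siZIP7_1, and at 3.07, 3.22 and 3.35 CPM with siZIP7_2. Despite the low level the groups did not overlap. These values rest on 12 to 98 reads per library. The log2 fold changes were −1.33 (SE 0.26, adjusted p = 3.8e-05) and 1.28 (SE 0.18, adjusted p = 3.6e-07), and the difference between the siRNAs was 2.62 (SE 0.22, adjusted p = 5.7e-12). NOTCH4, the remaining receptor and not one of the 10, rose with each siRNA, with log2 fold changes of 0.48 (SE 0.18, adjusted p = 0.0183) and 1.69 (SE 0.16, adjusted p = 9.4e-11), from 1.78 CPM to 2.48 and 5.75 CPM. Its siZIP7_1 libraries (2.51, 1.92 and 3.01 CPM) overlapped the controls (2.11, 1.55 and 1.67 CPM), and its siZIP7_2 libraries did not.

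LFNG showed the widest gap between the siRNAs among the 9 tested genes. Lunatic fringe (chr7:2512529-2529177, plus strand) extends the O-fucose sugars on Notch receptors, and its promoter sequences are given above. It stood at 25.3, 21.5 and 25.4 CPM in siNC, at 5.32, 4.36 and 4.80 CPM with siZIP7_1 and at 147, 125 and 139 CPM with siZIP7_2. Each group was far from the others relative to the spread of its libraries. The log2 fold changes were −2.32 (SE 0.094, adjusted p = 4.8e-19) and 2.50 (SE 0.067, adjusted p = 3.6e-23). LFNG was 28.4-fold higher with siZIP7_2 than with siZIP7_1 (log2 4.83, SE 0.083, adjusted p = 5.3e-28).

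HES1, the classical Notch target and a transcriptional repressor, fell strongly with siZIP7_1 and moved little with siZIP7_2. The gene lies at chr3:194136145-194138732 on the plus strand, and the window ahead of it carries the 2 capitalised TGGGAA matches shown above. Its levels were 32.1, 30.3 and 32.8 CPM in siNC, 6.77, 5.94 and 7.09 CPM with siZIP7_1, and 38.3, 36.2 and 34.9 CPM with siZIP7_2. The siZIP7_1 libraries lay far below the others, and the siZIP7_2 libraries just above the controls. With siZIP7_1 the log2 fold change was −2.26 (SE 0.078, adjusted p = 1.1e-20), leaving 20.8% of the siNC level. With siZIP7_2 it was 0.20 (SE 0.064, 95% interval 0.07 to 0.33, adjusted p = 0.0059). That last call depended on the processing: without a filter on low counts the value was 0.15 with an adjusted p of 0.0701, and with upper-quartile normalization it was 0.31, a scaling that itself moved the median of all genes by 0.106 in that comparison. The difference between the siRNAs was 2.46 (SE 0.077, adjusted p = 5.9e-22).

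HEY1 differed from the other targets in rising with both siRNAs. This HES-related repressor lies at chr8:79764010-79767863 on the minus strand. It stood at 1.89, 2.06 and 1.89 CPM in siNC, at 2.91, 3.44 and 2.29 CPM with siZIP7_1 and at 5.20, 6.48 and 5.08 CPM with siZIP7_2. Its lowest siZIP7_1 library came close to the controls, and the siZIP7_2 libraries lay above all others. The log2 fold changes were 0.56 (SE 0.17, adjusted p = 0.0054) and 1.53 (SE 0.16, adjusted p = 7.3e-10), and the difference was 0.97 (SE 0.14, adjusted p = 6.1e-07).

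NRARP, which binds the nuclear Notch complex and lowers its activity, followed the receptors at a low level. It lies at chr9:137300482-137302251 on the minus strand, and its promoter window, printed above, has no TGGGAA. The libraries gave 1.53, 1.55 and 1.35 CPM in siNC, 0.874, 0.721 and 0.533 CPM with siZIP7_1, and 2.06, 2.47 and 3.23 CPM with siZIP7_2. The groups did not overlap, although they rest on 17 to 84 reads per library. The log2 fold changes were −1.06 (SE 0.25, adjusted p = 4.2e-04) and 0.81 (SE 0.20, adjusted p = 5.5e-04), with a difference of 1.87 (SE 0.22, adjusted p = 1.2e-08).

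**Figure D2:**
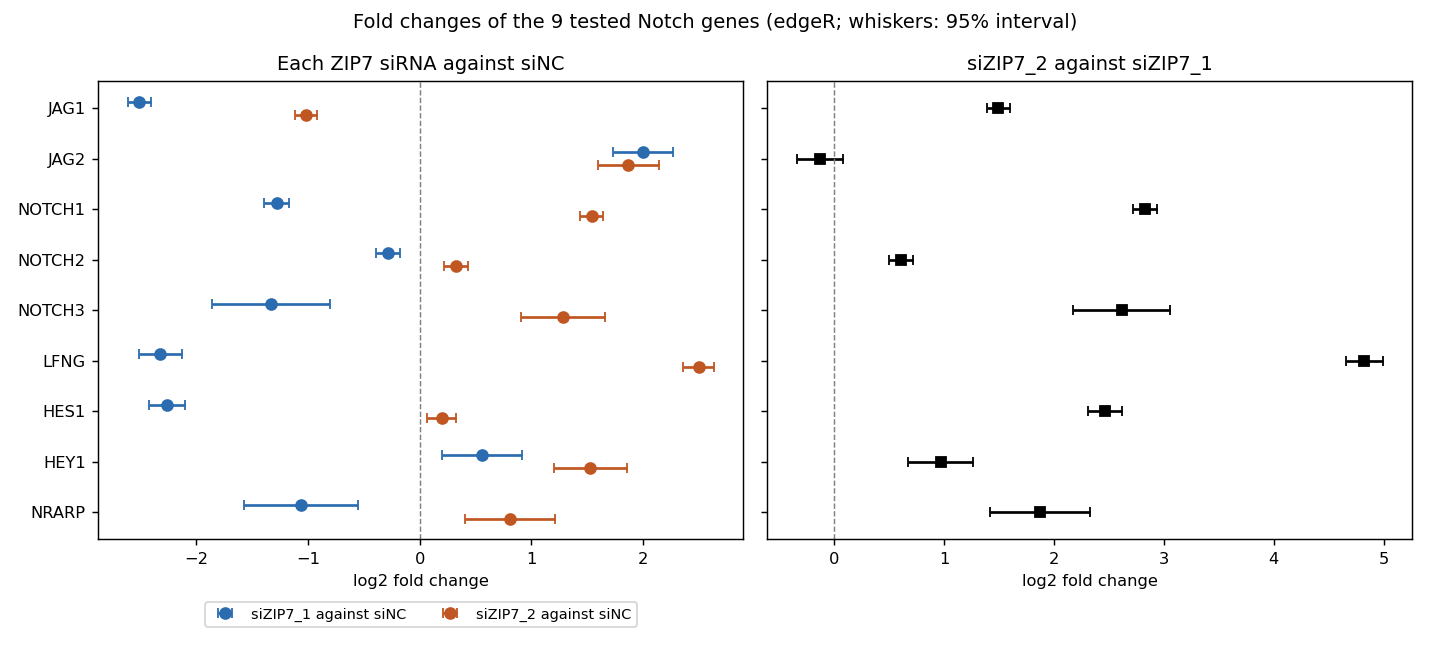
Log2 fold change (horizontal axes) of the 9 tested Notch genes, for each ZIP7 siRNA against siNC (left) and for siZIP7_2 against siZIP7_1 (right); points are edgeR estimates and whiskers their 95% intervals. In the left plot 6 genes lie on opposite sides of 0 with the 2 siRNAs, and in the right plot the interval of JAG2 alone spans 0.

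The study's own criterion asked for a change of at least 1.8-fold from the siNC mean in 4 of the 6 knockdown libraries, computed here on log2(CPM + 1). The study named JAG2 with this criterion, so that its passing here was known beforehand. JAG2 passed upward in 6 libraries and JAG1 passed downward in 6, and none of the other 8 Notch genes reached 4 libraries in 1 direction. Among all tested genes 2.8% passed upward and 2.88% downward. NOTCH1 and LFNG each changed this much in all 6 knockdown libraries, 3 up and 3 down, and would pass if both directions were counted together. HES1 did so downward in the 3 siZIP7_1 libraries, HEY1 upward in the 3 siZIP7_2 libraries and NOTCH3 upward in 2 of them, while NOTCH2, NRARP and DLL1 did so in none. When edgeR tested against a change of 1.8-fold in place of no change, 16.9% of tested genes were called with siZIP7_1, 24.7% with siZIP7_2 and 28.2% between the siRNAs, and 5, 6 and 6 Notch genes. JAG1, JAG2, NOTCH1 and LFNG were among those called with each siRNA.

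Because CPM favours long genes, levels of different genes were set side by side only per kilobase of exonic length. In siNC, JAG1 was the highest at 66.0 CPM per kb (SD 2.6, n = 3), followed by NOTCH2 at 23.3, HES1 at 15.4, LFNG at 7.05 and NOTCH1 at 6.54. The ranges of LFNG and NOTCH1 overlapped, and those of the other neighbours did not. The rest were under 1 CPM per kb, with NRARP at 0.833, HEY1 at 0.602, JAG2 at 0.354, NOTCH3 at 0.140 and DLL1 at 0.0162. When the length of the longest transcript was used in place of all exons, NRARP and HEY1 changed places.

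The order of levels per kb was different in each knockdown group. With siZIP7_1, NOTCH2 led at 19.1 CPM per kb and JAG1 came second at 11.6, with HES1 at 3.20, NOTCH1 at 2.69, and LFNG and JAG2 both at 1.41 with overlapping ranges. With siZIP7_2, LFNG led at 40.1 CPM per kb, ahead of JAG1 at 32.6 and NOTCH2 at 29.1, whose ranges overlapped, and NOTCH1 at 19.0 and HES1 at 17.7, whose ranges also overlapped. HEY1 (1.73), NRARP (1.46) and JAG2 (1.29) followed, each overlapping its neighbour, and NOTCH3 (0.342) and DLL1 (0.0296) were last. JAG2 therefore stayed well below JAG1 per length in every group, at 0.354 against 66.0 CPM per kb in siNC and 1.41 against 11.6 CPM per kb with siZIP7_1.

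**Figure D3:**
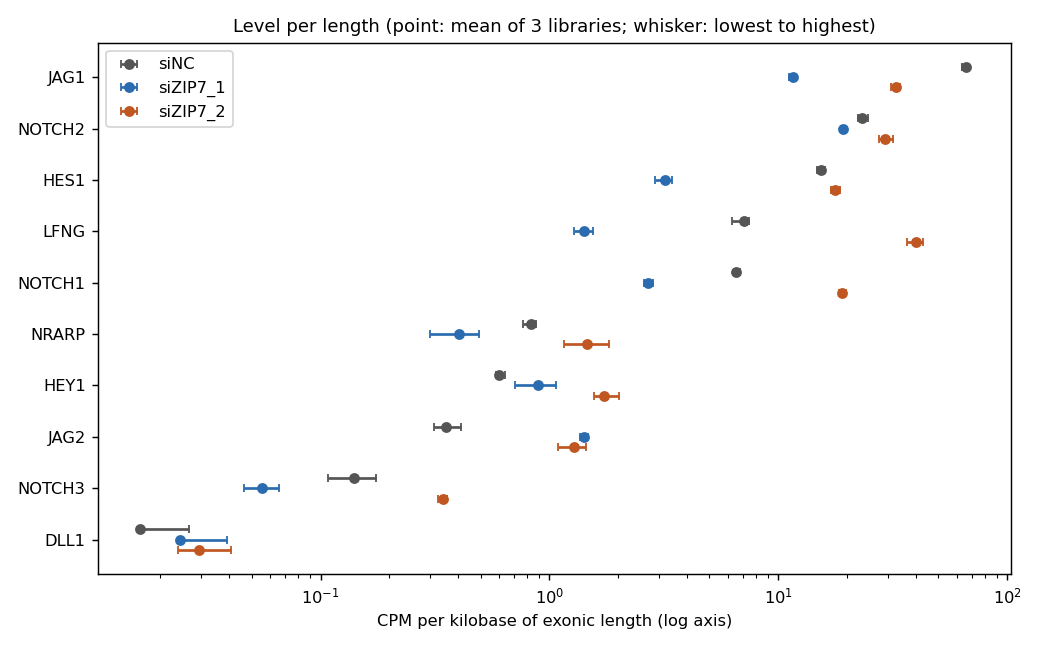
Level per length (horizontal log axis, CPM per kilobase of exonic length) of the 10 Notch genes in the 3 groups, ordered by the siNC mean; points are the mean of 3 libraries and whiskers run from the lowest to the highest library, except that a lowest value of 0 (DLL1) cannot be drawn on a log axis. JAG1 leads in siNC, NOTCH2 with siZIP7_1 and LFNG with siZIP7_2.

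The other genes of the pathway were taken from a list of 67 by role, of which 57 were not among the 10 and 55 of those were tested; DLL3 and DTX1 had too few reads. Of the 55, 23 were higher and 17 lower than siNC with siZIP7_1, and 33 were higher and 13 lower with siZIP7_2. Over all tested genes the shares were 34.8% higher and 35.9% lower with siZIP7_1, and 38.5% and 39.3% with siZIP7_2. The median log2 fold change over these genes was 0.12 and 0.26, beside −0.0069 and −0.0018 over all tested genes. Among them 13 were higher with each siRNA, 6 were lower with each and 14 moved in opposite directions, beside 17.7%, 20.8% and 18.7% of all tested genes. The counts by role given next rest on 12 genes or fewer each, were not tested, and are to be read against these same shares. All these counts include genes with few siNC reads that passed the filter through a knockdown group, such as DLL4, NEURL1, DTX4 and HES5.

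Among the other glycosyltransferases that build sugars on Notch, MFNG (manic fringe) and XXYLT1, a xylosyltransferase, moved in the same directions as LFNG. Their rises with siZIP7_2 were much smaller than that of LFNG, and MFNG had 6 to 11 reads per siZIP7_1 library. MFNG went from 1.47 CPM in siNC to 0.305 CPM with siZIP7_1 (log2 fold change −2.25, SE 0.31, adjusted p = 1.8e-07) and 2.24 CPM with siZIP7_2 (0.62, SE 0.21, adjusted p = 0.0090). XXYLT1 went from 50.2 CPM to 16.0 CPM (−1.65, SE 0.058, adjusted p = 2.2e-20) and 60.3 CPM (0.26, SE 0.052, adjusted p = 4.1e-05). POFUT1, which adds the first O-fucose that fringe enzymes extend, fell with each siRNA, from 259 CPM to 148 CPM (−0.81, SE 0.048, adjusted p = 4.7e-15) and 96.7 CPM (−1.42, SE 0.049, adjusted p = 1.5e-20). Of the 9 genes in this role, 2 were higher and 4 lower with siZIP7_1, and 5 higher and 2 lower with siZIP7_2 (all tested genes: 34.8% and 35.9%, then 38.5% and 39.3%).

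The proteases that cut the receptor split in both ways. FURIN, which cleaves the receptor during its maturation, and ADAM17, a cell-surface sheddase, were lower with siZIP7_1 (log2 fold changes −0.22, SE 0.050, adjusted p = 3.0e-04, and −0.48, SE 0.051, adjusted p = 1.7e-09) and higher with siZIP7_2 (1.21, SE 0.050, adjusted p = 6.6e-19, and 0.87, SE 0.050, adjusted p = 1.4e-15). The gamma-secretase subunits PSENEN and APH1A did the reverse, with 0.42 (SE 0.071, adjusted p = 6.7e-06) and 0.15 (SE 0.047, adjusted p = 0.0051) with siZIP7_1, and −1.15 (SE 0.082, adjusted p = 2.3e-13) and −1.28 (SE 0.049, adjusted p = 1.5e-19) with siZIP7_2. PSENEN is uncertain, since 56.5% of its exonic length overlaps another annotated gene. For APH1A and ADAM17 that share was 14.1% and 13.6%. Of the 9 genes in this role, 5 moved in opposite directions with the 2 siRNAs and 2 were higher with each, where all tested genes gave 18.7% and 17.7%.

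Of the 6 ligand uptake genes, whose products pull on bound receptor, 3 were higher with each siRNA, 0 lower with each and 2 opposite. All tested genes gave 17.7%, 20.8% and 18.7%. The ubiquitin ligases NEURL1 and MIB2 were among the 3 that rose. NEURL1, the first of them, had 3 to 8 counts in the siNC libraries and passed the filter through the knockdown groups; its mean rose from 0.211 CPM to 1.74 CPM with siZIP7_1 (log2 fold change 3.06, SE 0.33, adjusted p = 2.7e-09) and 1.06 CPM with siZIP7_2 (2.34, SE 0.37, adjusted p = 1.8e-06). MIB2, also a ligase for Notch ligands, rose from 45.5 CPM to 81.7 CPM (0.84, SE 0.054, adjusted p = 2.9e-14) and 90.4 CPM (0.99, SE 0.054, adjusted p = 5.8e-16). The endocytic adaptors EPN1 and EPN2 moved against each other. EPN1 stood at 297, 322 and 69.0 CPM in siNC, siZIP7_1 and siZIP7_2, its log2 fold change being 0.12 (SE 0.045, adjusted p = 0.0225) and then −2.10 (SE 0.049, adjusted p = 1.4e-24). EPN2 stood at 60.9, 36.1 and 80.0 CPM, with −0.75 (SE 0.051, adjusted p = 9.6e-14) and 0.39 (SE 0.049, adjusted p = 2.2e-08).

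In the group that controls receptor turnover, 3 of 10 genes were higher and 4 lower with siZIP7_1, and 7 were higher and 1 lower with siZIP7_2, where all tested genes gave 34.8% and 35.9%, and 38.5% and 39.3%. The 7 include DTX4, with 1 to 8 counts in the siNC libraries and 1 to 5 with siZIP7_1. DTX4 passed the filter through siZIP7_2, where it had 27 to 30 counts. NEDD4, a ubiquitin ligase, rose from 93.6 CPM to 121 CPM (log2 fold change 0.37, SE 0.051, adjusted p = 2.3e-07) and 364 CPM (1.96, SE 0.051, adjusted p = 1.6e-23). DTX3L, of the Deltex family, fell from 59.9 CPM to 28.0 CPM (−1.10, SE 0.054, adjusted p = 5.3e-17) and 19.4 CPM (−1.63, SE 0.057, adjusted p = 1.6e-20). NUMB, an inhibitor of Notch, and AAK1, a kinase acting in endocytosis, were slightly lower with siZIP7_1 (−0.11, SE 0.046, adjusted p = 0.0370, and −0.25, SE 0.053, adjusted p = 1.1e-04) and higher with siZIP7_2 (0.79, SE 0.045, adjusted p = 1.6e-15, and 0.83, SE 0.052, adjusted p = 1.5e-14).

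RBPJ itself, the DNA-binding partner of the receptor's intracellular domain, followed the pattern of HES1. Its means were 150 CPM in siNC, 60.7 CPM with siZIP7_1 (log2 fold change −1.31, SE 0.050, adjusted p = 1.3e-19) and 164 CPM with siZIP7_2 (0.13, SE 0.047, adjusted p = 0.0169). MAML3, a Mastermind co-activator, rose from 15.3 CPM to 47.9 CPM (1.65, SE 0.064, adjusted p = 2.2e-19) and 28.1 CPM (0.87, SE 0.067, adjusted p = 1.2e-12). The more abundant MAML1 (110 CPM in siNC) and MAML2 (79.2 CPM) did not rise. MAML1 was lower with siZIP7_2 (−0.22, SE 0.048, adjusted p = 1.2e-04) and MAML2 with siZIP7_1 (−0.47, SE 0.054, adjusted p = 7.0e-09), and neither was called with the other siRNA. The deacetylase HDAC1 moved by 0.13 (SE 0.047, adjusted p = 0.0166) and −0.38 (SE 0.047, adjusted p = 2.9e-08). Of the 12 nuclear genes, 6 were higher and 4 lower with each siRNA counted separately. All tested genes gave 34.8% and 35.9% with siZIP7_1, and 38.5% and 39.3% with siZIP7_2. With both siRNAs, 4 of the 12 were higher and 2 lower, where all tested genes gave 17.7% and 20.8%.

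Among the targets outside the 10, CCND1 and MYC, growth genes with many inputs besides Notch, fell with each siRNA. CCND1 went from 1497 CPM to 663 CPM (log2 fold change −1.18, SE 0.049, adjusted p = 9.0e-19) and 1010 CPM (−0.57, SE 0.048, adjusted p = 1.1e-11), with 10.3% of its exonic length shared with another annotated gene. MYC went from 271 CPM to 208 CPM (−0.38, SE 0.046, adjusted p = 2.0e-08) and 196 CPM (−0.47, SE 0.047, adjusted p = 3.1e-10). The other tested targets outside the 10, all of the HES and HEY families, were each called with 1 siRNA only. Of these, 2 were higher with siZIP7_1 and 4 were higher with siZIP7_2, where 34.8% and 38.5% of all tested genes were higher. HES5 had 2, 0 and 0 counts in siNC and 0 in every siZIP7_1 library, against 27, 24 and 18 with siZIP7_2, which is at least 7.34-fold higher than a floor of 3 counts per siNC library. Of the 12 targets listed, 11 were tested, of which 3 were higher and 4 lower with siZIP7_1, and 7 higher and 2 lower with siZIP7_2, beside the same shares of all tested genes. HES5 is among the 7 and passed the filter through siZIP7_2, where it is high. Thus HES1, HEY1, NRARP, CCND1 and MYC did not share 1 pattern across the groups.

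**Figure D4:**
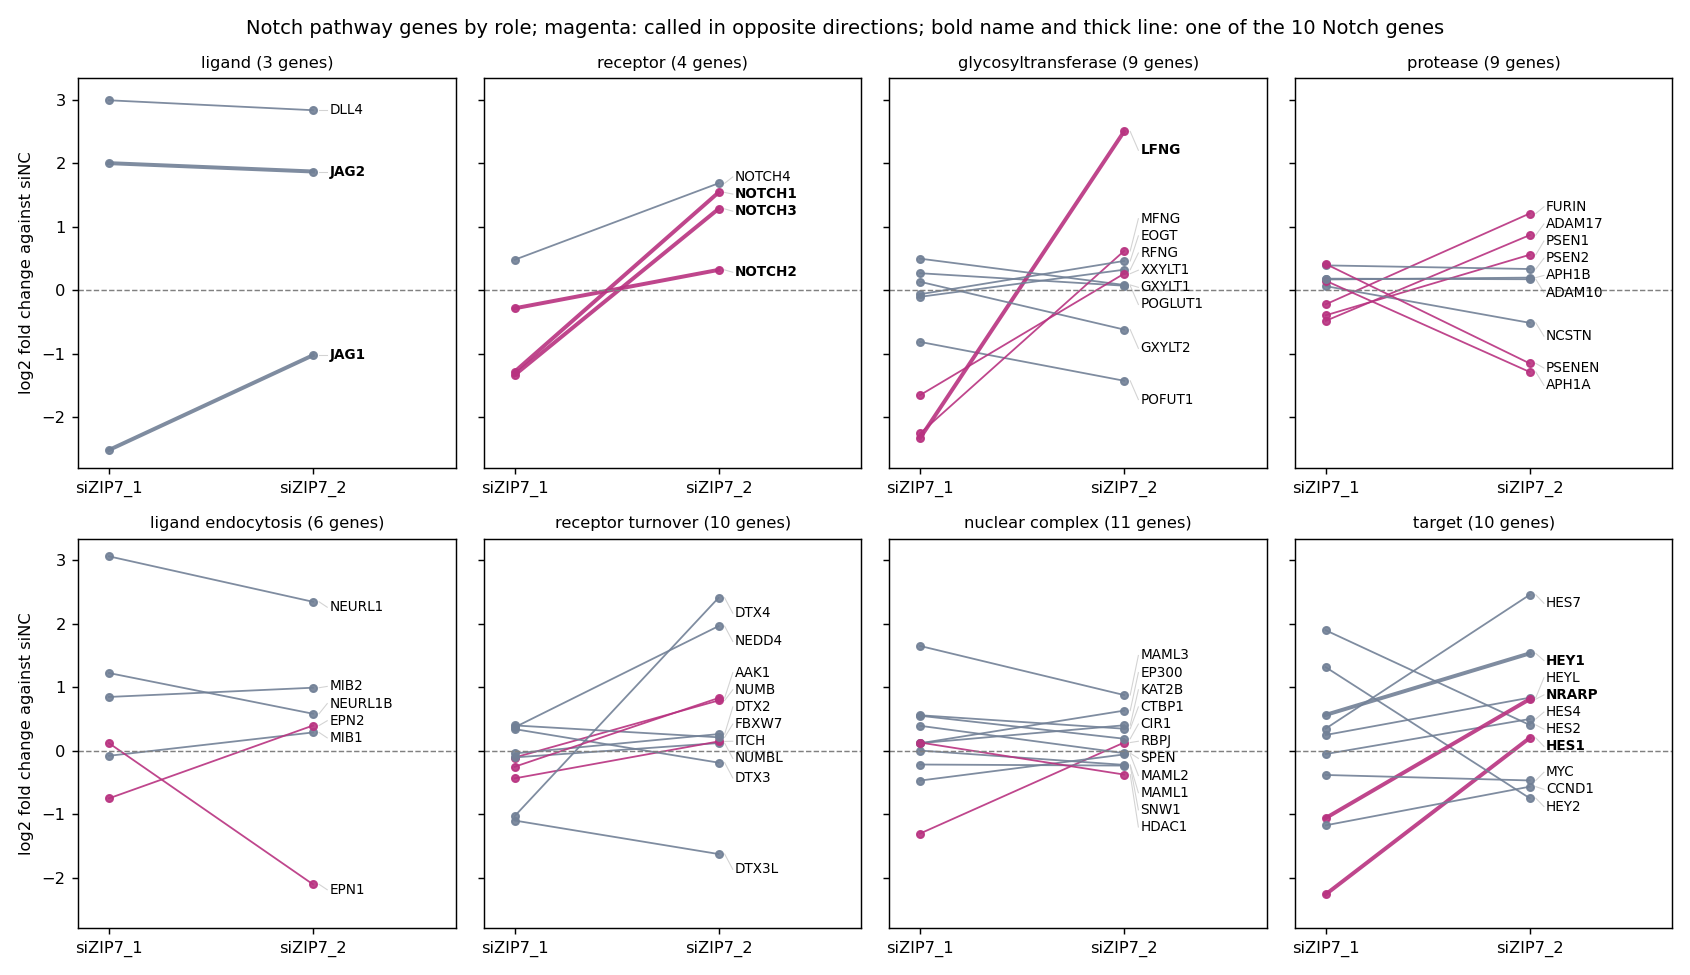
Log2 fold change against siNC (vertical axes) with siZIP7_1 and with siZIP7_2 for 62 tested genes of the Notch pathway in 8 roles; a line joins the 2 values of a gene, magenta marks genes called in opposite directions, and bold names with thick lines mark the Notch genes described above. Of the 64 tested, HES5, at or near 0 counts in siNC and siZIP7_1, and 1 gene not reported here are left out; the receptors NOTCH1, NOTCH2 and NOTCH3 and the enzymes LFNG, MFNG and XXYLT1 cross 0 upward.

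The genes whose levels across the 9 libraries most resembled those of JAG2 were sought among the 13736 genes whose mean reached 1 CPM. Pearson's r on log2 CPM was 0.993 for LMBR1L, 0.992 for ZNF563 and 0.992 for AL604028.2, and 397 genes had an r over 0.95, so these 3 are the top of a long list. The points share the 3 group means, and r describes them only. LMBR1L went from 12.5 CPM in siNC to 30.6 and 29.2 CPM, ZNF563 from 2.34 to 5.14 and 4.46 CPM, and AL604028.2 from 0.624 to 1.29 and 1.23 CPM.

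Markers of cell types rich in Notch ligands and receptors were read beside these results. All libraries came from 1 cultured line, and in bulk RNA a change in some of its cells and a change in every cell cannot be told apart. Over 6 endothelial markers the summed level was 206 to 222 CPM in siNC, 289 to 298 CPM with siZIP7_1 and 222 to 234 CPM with siZIP7_2. Most of it came from ESAM, a junction protein, at 202, 290 and 180 CPM, with a smaller share from ESAM in siZIP7_2 than in the other groups. The defining markers PECAM1 (3.02, 0.102 and 8.63 CPM), TIE1 (9.44, 3.99 and 37.6 CPM) and CDH5 (0.0119, 0.135 and 1.27 CPM) were highest with siZIP7_2, and CLDN5 had no more than 3 counts in any library. CDH5 had no more than 1 count in any siNC library and 1 to 6 with siZIP7_1. TEK (0.316, 0.182 and 0.511 CPM) was not called against siNC with either siRNA. The 4 mural markers summed to 8.53 to 8.64, 16.5 to 19.3 and 12.3 to 15.4 CPM in the same order, mainly from PDGFRB (4.89, 14.0 and 11.9 CPM). RGS5 (2.53, 2.30 and 0.741 CPM) and ACTA2 (1.11, 1.83 and 0.860 CPM) were lowest with siZIP7_2, and MYH11 had no more than 7 counts in any library. Over 4 blood markers the sum was 1.68 to 2.87, 1.31 to 1.60 and 9.08 to 12.2 CPM, mainly from CD14 (means of 1.81 and 0.544 CPM in siNC and siZIP7_1, and 8.72 to 11.9 CPM in the siZIP7_2 libraries). PTPRC, carried by all white blood cells, had another order, at 0.402, 0.875 and 0.327 CPM, and CD3E had at most 1 count in any library. PECAM1, TIE1 and CD14 had the same order over the groups as NOTCH1, NOTCH3 and LFNG, and their part in these results was not tested. The share of reads assigned to no gene was 7.43 to 8.28% in siNC, 7.80 to 9.62% with siZIP7_1 and 9.99 to 11.5% with siZIP7_2, and its part was not tested either.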

How the data were processed

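RNA was sequenced as single reads on an Illumina HiSeq instrument. Per the labels, the submitters' processing notes name Trim Galore 0.4.1, FastQC 0.11.2, STAR (version not given), HTSeq 0.6.1 and DESeq2 1.16.1; the genome build, annotation and strand setting are not given in the sources used here. The deposited values are raw counts per gene made by the authors, 1 table per library. Rows that name no gene (no feature or ambiguous) were left out and took 10.3 to 14.1% of each library; reads with several alignments were not analysed here. Without a known strand setting, antisense and overlapping genes cannot be told apart.

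All 9 libraries were fitted together in edgeR 4.0.16 (R 4.3.3; TMM, filterByExpr, quasi-likelihood F test, Benjamini-Hochberg over 16761 genes, threshold 0.05, 6 residual degrees of freedom). The SE is the size of the log2 fold change over the square root of F. CPM is TMM-normalized. Symbols and positions come from GENCODE 29 (58275 of 58395 identifiers matched). Alternatives included DESeq2 1.42.0, other normalizations, filters, the replicate number as a block and each library left out. Within-group pairs of libraries differed by more than sampling noise (chi-square per gene 2.41 to 6.42). The script was tested on simulated counts of 16307 genes, with 100 changed by a log2 value of 0.5 and 100 by 1. It recovered 72% and 83% of them, and 7.19% of its calls were false. Far fewer genes were changed there than were called in these data. Library totals ran from 24153785 to 30454419 counts, so genes of a few reads carry wide errors.

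The Notch genes and lists were chosen with earlier results of these data known. The text names the 10 genes, SLC39A7, the NOTCH2NL copies of NOTCH2, the 3 genes most like JAG2 and, in each pathway role, at most 4 genes called in the same or in opposite directions with both siRNAs and having the largest mean or difference. HES5 was added after its values were seen, DTX4 because of its low counts, and MAML1 and MAML2 to stand beside MAML3. The siRNA sequences were not used here. Results for single items withheld from this text are not reported here.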

Additional observations from a re-analysis of the deposited data

Results flagged for a closer look

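The effects of the 2 siRNAs, each against the same siNC libraries, differed in direction for 6 Notch genes, tested as the direct contrast of siZIP7_2 against siZIP7_1 in edgeR. The difference in log2 fold change was 4.83 for LFNG, 2.82 for NOTCH1, 2.62 for NOTCH3, 2.46 for HES1, 1.87 for NRARP and 0.61 for NOTCH2, and all 3 libraries of siZIP7_2 were higher than all 3 of siZIP7_1 for each. These genes lay below siNC with siZIP7_1 and above it with siZIP7_2, so this order follows from how they were picked, and the differences are given for their size only. SLC39A7 was lower with siZIP7_2 than with siZIP7_1 by a log2 difference of −0.89 (SE 0.066, adjusted p = 4.9e-13). Groups of 3 libraries were too small for a check of single outlying libraries.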

How the results depend on the processing

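Over 459 values of the tested Notch genes under alternative settings, 449 kept their direction and their side of the threshold, 10 kept the direction but were no longer called, and 0 reversed. Of those 10, 9 came from testing against a 1.8-fold change (NOTCH2 in all 3 comparisons, NOTCH3 with siZIP7_1 at an adjusted p of 0.0563, HES1 with siZIP7_2, HEY1 with siZIP7_1 and between the siRNAs, and NRARP with each siRNA) and 1 was HES1 with siZIP7_2 without a filter on low counts (0.15, adjusted p = 0.0701). The test against 1.8-fold, by its construction, called 2836 genes with siZIP7_1, 4134 with siZIP7_2 and 4725 between the siRNAs; it called 5 Notch genes with siZIP7_1, and in the pathway list 3 genes higher with each siRNA, 2 lower with each and 2 in opposite directions, in place of 15, 7 and 20. Leaving out 1 library at a time gave 11291 to 11984, 12633 to 13360 and 12840 to 13458 genes called, 9, 9 and 8 Notch genes in every case, 12 to 15, 7 to 8 and 17 to 20 pathway genes, and −3.26 to −3.15 and −4.14 to −4.04 for SLC39A7. In the pathway list, 15 genes moved in opposite directions without a filter on low counts, in place of 20, and 19 were higher with each siRNA under upper-quartile normalization, in place of 15. With the replicate number as a block, 11927, 13080 and 13242 genes and 9, 9 and 8 Notch genes were called, and no call on a Notch gene changed. The numbers did not pair the libraries: deviations from the group means correlated between −0.0493 and 0.0754 over 9 same-numbered pairs and between −0.125 and 0.113 over 18 others. On the criterion of 1.8-fold in single libraries, NOTCH3 passed upward in 0 libraries at 2-fold, and with a pseudocount of 0.1 it passed downward in 3 and NRARP upward in 1 and downward in 2. NOTCH3, at 12 to 98 reads per library, and DLL1, at no more than 4, were the genes that depth limited most.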
